A study of Mus musculus with 2 samples.

Results

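The Chd proteins are ATP-dependent chromatin remodelers, and 8 of the genes that encode them are described here in mouse embryos at E9.5, out of 18131 genes in the tables: Chd1, Chd2, Chd3, Chd4, Chd6, Chd7, Chd8 and Chd9. Chd7 was selected on its KO over WT ratio in cardiac muscle cells of these same libraries, and the other 7 were taken as its relatives. That ratio is therefore given as a description. Tissue dissected from the cardiac neural crest region was profiled by single-cell RNA sequencing, with 1 library per genotype, both in C57BL/6. Embryos of the WT library were Prdm6+/+; Wnt1-Cre2; ZsGreen1. Those of the KO library were Prdm6f/f; Wnt1-Cre2; ZsGreen1. Wnt1-Cre2 makes Cre recombinase in the Wnt1 lineage, which includes the neural crest, and ZsGreen1 is a Cre-activated green reporter. Both genotypes carry these 2 transgenes. No sort is described, so cells outside that lineage, in which Prdm6 is intact, were captured as well.

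Chd proteins share a pair of chromodomains and an ATPase motor of the Snf2 type, which slides, ejects or spaces nucleosomes. Chd1 and Chd2 act at transcribed genes. Chd3 and Chd4 are alternative motors of the NuRD complex, which joins remodeling to histone deacetylation. Chd6, Chd7, Chd8 and Chd9 form a further branch of the family. Loss of one copy of CHD7 in humans causes CHARGE syndrome, with defects of the heart, ear, eye and face that trace in large part to the neural crest. Chd8 binds β-catenin and restrains Wnt target genes, and CHD8 mutations are found in autism with a large head.

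The 8 genes lie on 8 chromosomes and differ widely in length (GRCm38, GENCODE vM21). Chd7 (chromosome 4, 8690406 to 8867659, plus strand) spans 177 kb and Chd9 (chromosome 8, 90828352 to 91054516, plus strand) spans 226 kb. Chd6 (chromosome 2, 160946978 to 161109075, minus strand) spans 162 kb and Chd2 (chromosome 7, 73426638 to 73541830, minus strand) spans 115 kb. The shorter genes were Chd1 (chromosome 17, 15704967 to 15772610, plus strand), Chd8 (chromosome 14, 52198151 to 52257780, minus strand), Chd4 (chromosome 6, 125095981 to 125130591, plus strand) and Chd3 (chromosome 11, 69343273 to 69369406, minus strand), the last with 26.1 kb. The longest annotated transcripts have 36 to 40 exons.

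Promoter bases from RefSeq (GRCm38.p6) are shown for members that are set against each other below: Chd4 and Chd6, whose levels were higher in KO, and Chd8, whose level was not. The 120 bases before the transcription start are given 5′ to 3′ on the gene's strand, with CG pairs in capitals. The windows are chr6:125095861-125095980 for Chd4, chr2:161109087-161109206 for Chd6 and chr14:52257761-52257880 for Chd8.
Chd4: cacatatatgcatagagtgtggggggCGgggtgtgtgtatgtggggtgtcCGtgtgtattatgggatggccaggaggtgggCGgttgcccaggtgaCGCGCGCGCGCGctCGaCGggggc
Chd6: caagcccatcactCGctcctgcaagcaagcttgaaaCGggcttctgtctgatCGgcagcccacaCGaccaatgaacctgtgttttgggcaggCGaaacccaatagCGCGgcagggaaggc
Chd8: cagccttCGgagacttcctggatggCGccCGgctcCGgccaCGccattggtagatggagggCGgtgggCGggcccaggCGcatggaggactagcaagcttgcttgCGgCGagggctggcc
RefSeq gives a second Chd4 start, and these bases precede the first of them. Over the 250 bases before the start, the promoters held 12, 19 and 20 CG pairs in this order, against a median of 6 in 32841 windows. All 3 had the letters GGGCGG of a GC box on at least 1 strand, which 32.7% of all windows hold, and the windows of Chd6 and Chd8 had CCAAT, which 33.9% hold. The second Chd4 window, not printed, held 23 CG pairs, more than those of Chd6 and Chd8, and had both GGGCGG and CCAAT. None of these windows had TATAAA, which 12.4% of windows hold. Of the other members, Chd9 also had a window and Chd1, Chd2, Chd3 and Chd7 are named only.

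Each UMI (unique molecular identifier) counts 1 captured transcript. There were 11958 WT cells with a median of 1597 UMIs, and 9765 KO cells with a median of 1703. Their totals were 20781384 and 18936857 UMIs, and 26 cell barcodes occurred in both. Prdm6, the targeted gene, had 104 UMIs in WT and 59 in KO, a log2 ratio of −0.68 (−1.17 to −0.21), and 3′ reads do not tell the deleted allele from the intact one. Some RNAs that track handling, cell cycle or free RNA differed between the libraries. Replication histones, summed over 49 genes, had 277 UMIs per 1000000 UMIs in WT and 561 in KO, and were higher in KO in each cell class described. Globins summed to 14048 in WT and 7275 in KO, and outside the erythroid class, where they can come from free RNA, they were lower in KO in each class. Gm42418, an RNA that collects ribosomal reads, had 1091 in WT and 2507 in KO. Their part in the results below was not tested. With 1 library per genotype, genotype and library cannot be told apart, and the methods mention a batch difference between the 2 conditions. No test is therefore given, and no gene is called changed. All intervals are exact intervals of 95% that cover counting error only.

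Chd4 and Chd7 were the members with the most UMIs, and both were higher in the KO library. Levels are in UMIs per 1000000 UMIs of the library (CPM). Since 1 end of each transcript is counted, they are not divided by gene length. Chd4, the NuRD motor, had 386 CPM in WT (377 to 394, 8017 UMIs) and 464 in KO (455 to 474, 8794 UMIs). Its log2 ratio, KO over WT, was 0.27 (0.22 to 0.31). Chd7 had 222 CPM in WT (215 to 228, 4605 UMIs) and 269 in KO (262 to 277, 5100 UMIs), a log2 ratio of 0.28 (0.22 to 0.34). The all-cell values of Chd7 here and below include the cardiac muscle cells on which it was selected. Without those cells its ratio was 0.26 (0.20 to 0.32). The intervals of the 2 libraries did not overlap for either gene over all cells. Both differences were of about the same size, although Chd4 and Chd7 belong to different branches of the family.

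The rest of the family fell into 2 groups by level. Chd1, which binds marked histones at active promoters, had 146 CPM in WT (3028 UMIs) and 149 in KO (2821 UMIs), with a ratio of 0.03 (−0.04 to 0.11). Chd8 had 152 CPM in WT (146 to 157, 3151 UMIs) and 141 in KO (136 to 146, 2670 UMIs). Chd8 was the 1 member with a ratio below 0, −0.10 (−0.18 to −0.03). Its size depended on scaling and depth: the ratio was −0.05 with TMM, the trimmed mean of log ratios, −0.04 with a median of ratios, and 0.02 (−0.09 to 0.14) in the cells of highest depth. The remaining 4 members had 31 to 49 CPM in WT and 33 to 58 in KO.

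Among the sparse members, Chd2 and Chd6 had the larger ratios. Chd2, which acts with a histone H3 variant at open chromatin, had 33.3 CPM in WT (692 UMIs) and 40.8 in KO (772 UMIs), for a ratio of 0.29 (0.14 to 0.44). Chd6 had 48.8 CPM in WT (1014 UMIs) and 58.1 in KO (1101 UMIs), for a ratio of 0.25 (0.13 to 0.38). For both genes the WT level lay below the KO interval. Chd3, the second NuRD motor, had 35.7 CPM in WT (741 UMIs) and 39.7 in KO (751 UMIs), for a ratio of 0.15 (0.01 to 0.30). Chd9 had 30.7 CPM in WT (638 UMIs) and 33.0 in KO (624 UMIs), and its ratio of 0.10 (−0.06 to 0.26) was not distinguishable from 0 at this depth.

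**Figure D1:**
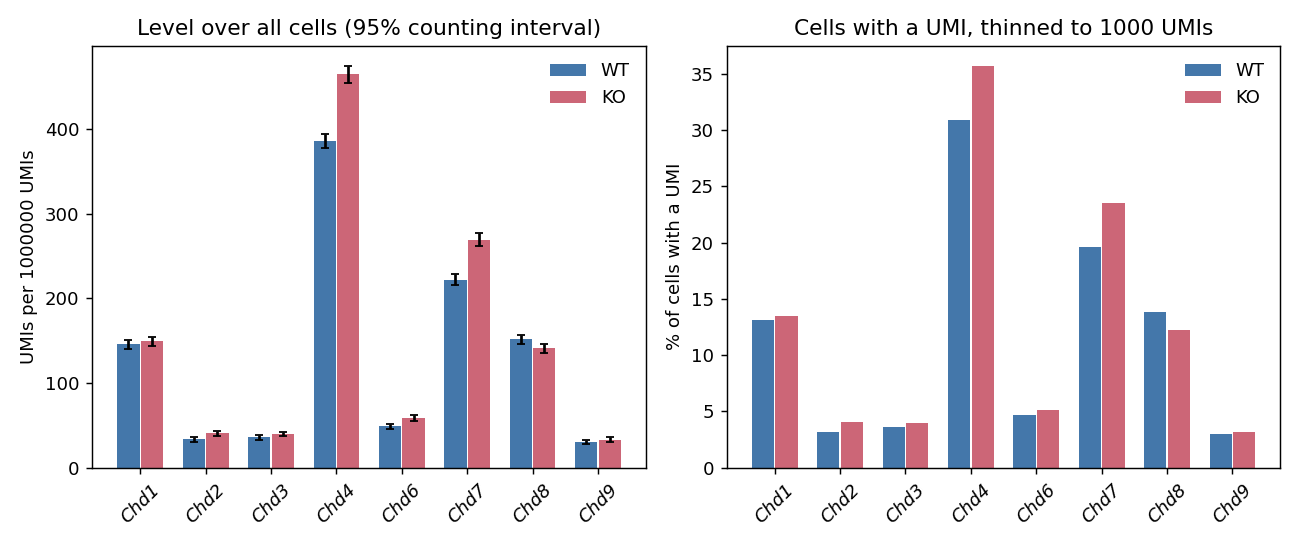
Level of each member over all cells (left, UMIs per 1000000 UMIs, bars with exact Poisson intervals of 95%) and share of cells with a UMI after each cell was thinned to 1000 UMIs (right, in %), WT in blue and KO in red. Chd4 had 386 CPM in WT and 464 in KO, Chd7 222 and 269, and Chd8 152 and 141.

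Summed over the 8 genes, the family had 1053 CPM in WT and 1195 in KO, for a ratio of 0.18 (0.16 to 0.21), which without Chd7 was 0.15 (0.12 to 0.19). Chd4 gave 36.6% of the family's UMIs in WT and 38.9% in KO, and Chd7 was the next largest contributor, with 22.5% in KO. These 2 genes thus made up most of the UMIs of the family in both libraries.

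The family was read against all genes with at least 200 UMIs over both libraries. Of 10513 such genes, 6.46% were at least 1.2-fold higher in KO and 15.9% at least 1.2-fold lower. Among the 8 members, 3 were past this fold in the higher direction (Chd2, Chd4 and Chd7) and 0 in the lower direction. Without the cardiac muscle cells, the 3 past it were Chd2, Chd4 and Chd6, against 6.41% of the genes, and Chd7 lay inside at 1.196-fold. Without all cells of at least 3 cardiac markers there were 2, Chd4 and Chd6, against 6.73%. Over all cells Chd6 lay just inside it at 1.19-fold, and Chd4 just past it. The median ratio was 0.20 over the members and −0.06 over all genes, whose middle 90% ran from −0.44 to 0.30, so each member lay within that span. The share of genes at or above a member was 5.58% for Chd7, 5.14% for Chd2, 6.14% for Chd4 and 6.92% for Chd6. For Chd8 it was 59.7%.

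The ratio of a gene moved with its level, which bears on the 2 abundant members. Genes of 200 to 500 CPM, where Chd4 and Chd7 lie, had a median ratio of 0.04, and 13.8% of them were at least 1.2-fold higher in KO. Among 434 genes within 1.5-fold of the level of Chd4, 15.2% had a ratio as high or higher. Among 741 genes within 1.5-fold of the level of Chd7, 9.45% did. For the sparse members the shares ran to both sides of these, with 3.24% of 2620 genes for Chd2 and 5.59% of 2506 genes for Chd6. They were 11.2% of 2605 genes for Chd3 and 17.4% of 2609 genes for Chd9. Gene length made less difference: the median ratio was −0.06 for genes under 10 kb and −0.03 for those over 100 kb, among them Chd2, Chd6, Chd7 and Chd9.

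**Figure D2:**
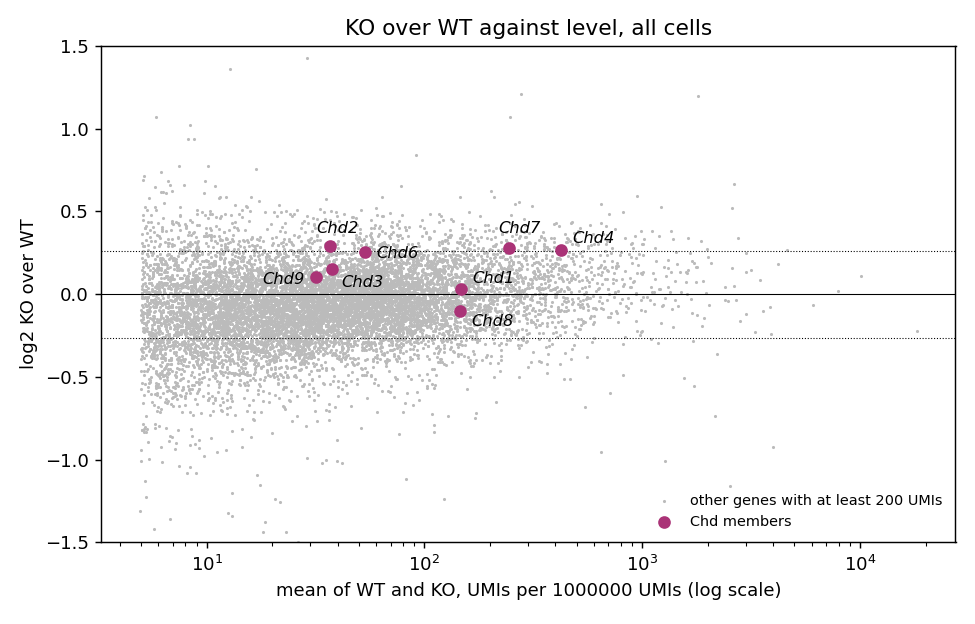
Log2 ratio of KO over WT (vertical axis) against mean level in UMIs per 1000000 UMIs (horizontal log axis) for the 10513 genes with at least 200 UMIs, all cells. Dotted lines mark 1.2-fold, and 9 genes lie outside the plotted range. The members (purple) lie inside the cloud of genes, with Chd2, Chd4, Chd6 and Chd7 near the upper dotted line and Chd8 below 0.

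A larger share of KO than of WT cells carried a UMI of each member, and KO cells were also deeper. A UMI of Chd4 was found in 45.7% of WT cells (44.8 to 46.6) and 54.8% of KO cells (53.8 to 55.8). With each cell thinned to 1000 UMIs, the shares were 30.9% and 35.7%. The 1361 WT cells and 125 KO cells that were shallower did not enter. For Chd7 the shares were 30.6% and 38.8% of all cells, and 19.6% and 23.5% of thinned cells. Thinning thus narrowed the gap for both genes and left its direction. For Chd8 it turned the direction, from 22.0% in WT and 22.8% in KO to 13.8% and 12.3%. The thinned shares of Chd1 were 13.1% and 13.5%, and those of Chd2, Chd3, Chd6 and Chd9 lay between 2.95% and 5.15%. No cell class is known to lack these genes, so no background share for free RNA could be set.

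Cells were also compared at like depth, in 4 bins cut at the quartiles of depth, the lowest of which was 1235 UMIs and the highest 2257. From the shallowest to the deepest bin, Chd7 had ratios of 0.24, 0.15, 0.39 and 0.29, each with its interval above 0. Chd4 had ratios of 0.44, 0.12, 0.16 and 0.33, with intervals above 0 as well. The bins of Chd8 differed, with −0.14, −0.29, −0.29 and 0.02. Its intervals lay below 0 in the middle bins, −0.47 to −0.11 and −0.44 to −0.15, and included 0 in the shallowest and the deepest. Chd6 had ratios of 0.25, −0.22, 0.38 and 0.31, and Chd2 had 0.59, 0.08, 0.43 and 0.25.

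Cells were placed in a class by marker genes: at least 3 different markers of the class, and more than of any other class. Of 15 classes, 10 had at least 50 cells in both libraries. Cells with a few cardiac markers were numerous, so the name cardiac muscle-like was kept for cells with at least 7, a cut set after the data were seen. The cells with 3 to 6 cardiac markers (1823 in WT, 2007 in KO) and those in no class (6591 and 5317) were kept apart. The classes held 664 WT and 374 KO cardiac muscle-like cells, 562 and 428 endothelial-like, 506 and 200 erythroid-like, and 275 and 216 migrating neural crest-like cells. Neural classes were neural tube-like (458 and 413), dorsal neural tube-like (86 and 81), floor plate-like (98 and 100) and neuron-like (112 and 109). Pharyngeal and splanchnic mesoderm-like cells (380 and 251) and somite-like cells (285 and 165) completed the set. Markers used to place the cells lead their classes by construction and are no check of the names. Among the 10 leading genes of a class, those that were not markers included Ankrd1 in cardiac muscle, Cd34 in endothelial cells, globins in erythroid cells, Msx1 and Zic5 in the dorsal neural tube, and Insm1 and Neurod4 in neurons, in both libraries. Migrating neural crest had Phactr1 and Dlx2, the latter listed as a marker of arch mesenchyme, and in KO somites 9 of the 10 were markers, so little there was independent of the choice of cells. Below, the names of the classes are given without the ending.

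Chd7 was highest in neurons in both libraries, and its lowest level, in erythroid cells, depended on globin UMIs in the total. In WT the level was 322 CPM in neurons, 306 in the dorsal neural tube, 274 in migrating neural crest, 244 in the neural tube, 235 in somites and 229 in the floor plate. Lower levels were found in endothelial cells with 197, pharyngeal and splanchnic mesoderm with 190.1, cardiac muscle with 171 and erythroid cells with 161. The intervals of each class and the next in this order overlapped, while those of neurons and erythroid cells did not. Against the other classes together, the WT ratio was 0.66 (0.28 to 1.02) for neurons, 0.58 (0.16 to 0.96) for the dorsal neural tube and 0.45 (0.22 to 0.67) for migrating neural crest. For the neural tube it was 0.27 (0.05 to 0.48).

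The KO library had much the same ends of this order for Chd7. Neurons had 397 CPM, migrating neural crest 317, somites 306, the neural tube 304, the floor plate 276 and the dorsal neural tube 269.9. Cardiac muscle followed with 257, endothelial cells with 237, pharyngeal and splanchnic mesoderm with 233 and erythroid cells with 196. Migrating neural crest was again above the other classes together, by 0.27 (0.05 to 0.48), and so were neurons, by 0.59 (0.28 to 0.89), and the neural tube, by 0.21 (0.02 to 0.40). The dorsal neural tube, in second place in WT, was at the mean of the other classes in KO with 0.01 (−0.41 to 0.40). Globins took a large share of the erythroid UMIs, 166044 CPM in WT and 171634 in KO. With globins left out of the total, erythroid cells had 193 CPM of Chd7 in WT and 237.1 in KO and were no longer lowest. On that scale the lowest was cardiac muscle in WT, with 171, and pharyngeal and splanchnic mesoderm in KO, with 234, and endothelial cells had 198 and 237.6.

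**Figure D3:**
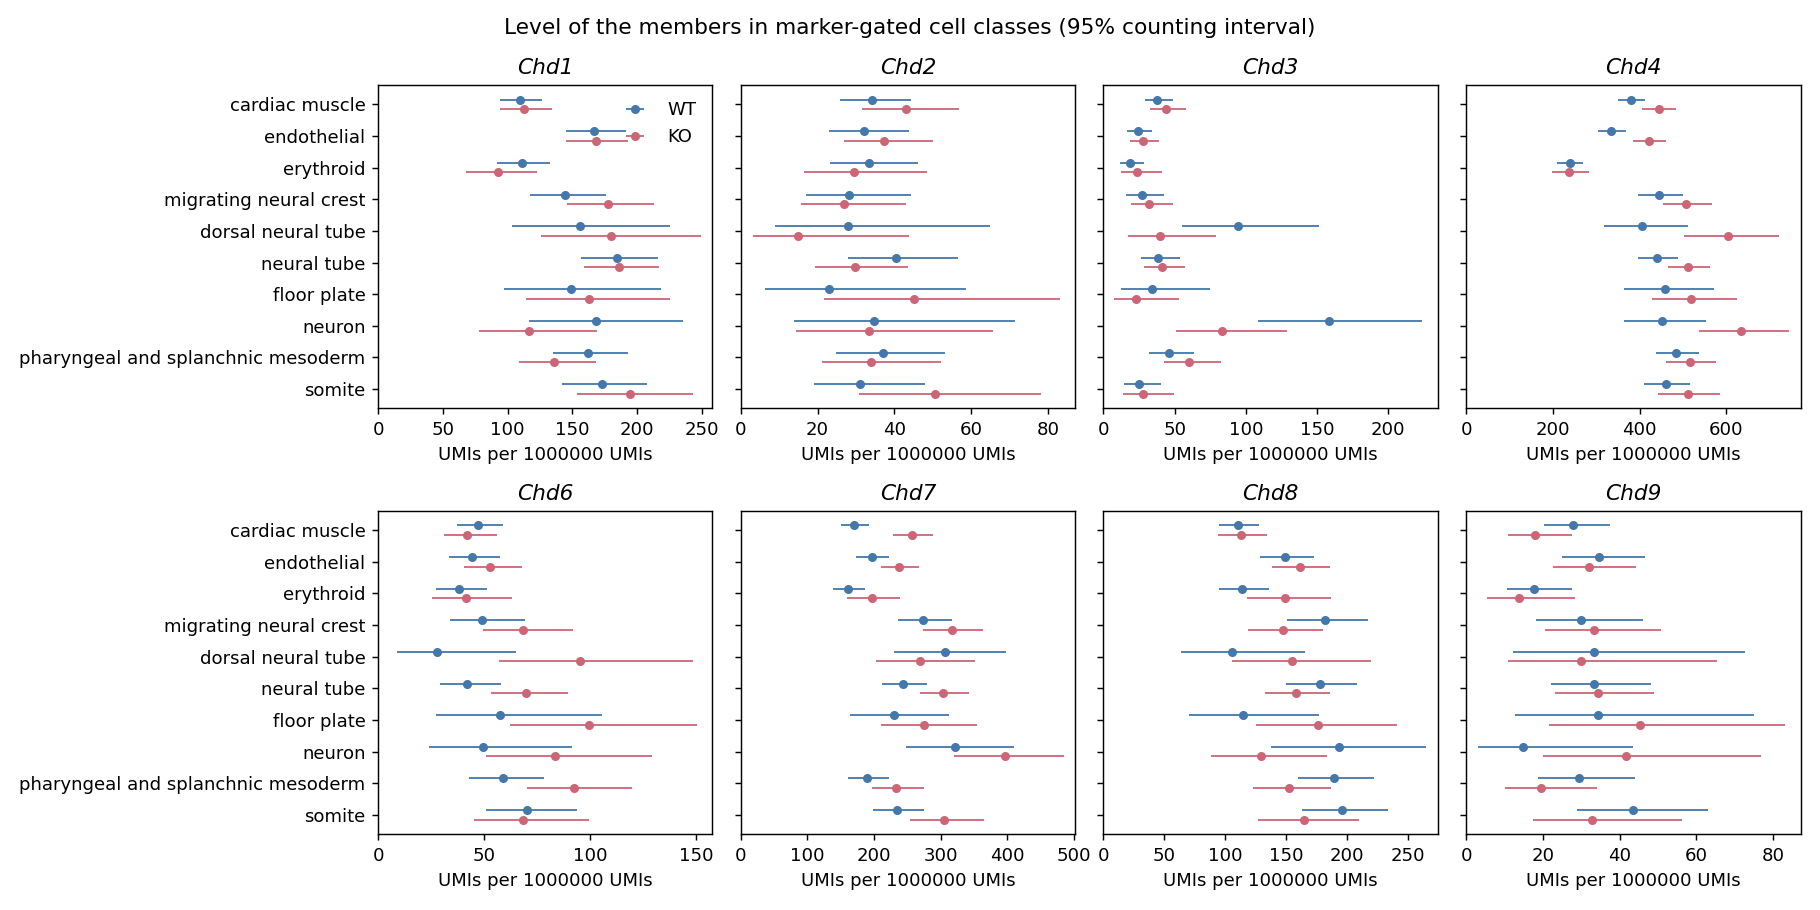
Level of each member (UMIs per 1000000 UMIs of the class, with exact Poisson intervals of 95%) in the 10 marker-gated classes, WT in blue and KO in red, and horizontal axes differ between panels. Chd7 is highest in neurons (322 in WT, 397 in KO), Chd3 in neurons (159 and 83.5), and Chd4 is lowest in erythroid cells (239 and 238).

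Chd4 was no more even across classes than Chd7, and 1 class stood apart. Its highest class exceeded its lowest by 2.03-fold in WT and 2.67-fold in KO, against 2.00-fold and 2.02-fold for Chd7. In WT Chd4 had 485 CPM in pharyngeal and splanchnic mesoderm, 462 in somites, 459 in the floor plate, 451 in neurons, 446 in migrating neural crest, 441 in the neural tube, 406 in the dorsal neural tube, 381 in cardiac muscle, 335 in endothelial cells and 239 in erythroid cells. In KO the order began with neurons at 635, the dorsal neural tube at 605 and the floor plate at 519.7, and ended with cardiac muscle at 444, endothelial cells at 422 and erythroid cells at 238. The other 4 classes lay between 508 and 517. The only neighbours in either order whose intervals did not overlap were endothelial and erythroid cells. With globins left out of the totals, WT erythroid cells had 286 CPM (253 to 324) and endothelial cells 336 (305 to 370), intervals that overlap, whereas the KO values of 287 (238 to 343) and 422 (386 to 462) stayed apart.

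Chd3 had the widest span of the family in WT. Its level was 159 CPM in WT neurons (32 UMIs) and 94.6 in the WT dorsal neural tube (17 UMIs), against 18.5 to 45.9 in the other 8 classes. Neurons exceeded the other classes by 2.28 (1.70 to 2.82) in WT and by 1.19 (0.45 to 1.85) in KO, where the level was 83.5 CPM (20 UMIs). The dorsal neural tube exceeded them by 1.45 (0.65 to 2.16) in WT but by 0.05 (−1.18 to 1.06) in KO, with 8 UMIs. A high Chd3 level in neurons was thus found in both libraries, and that of the dorsal neural tube in 1.

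Among the other members, the highest class exceeded the lowest by 1.56-fold (Chd8 in KO) to 3.37-fold (Chd2 in KO). Chd1 and Chd8 were low in cardiac muscle in both libraries, with ratios to the other classes of −0.51 and −0.51 for Chd1 and −0.53 and −0.46 for Chd8, each interval below 0. Chd1 exceeded the other classes in the neural tube, by 0.39 in WT and 0.36 in KO. Chd9 had 19 UMIs in WT erythroid cells and 7 in KO. For Chd2, Chd6, Chd8 and Chd9 the intervals of the highest and the lowest class overlapped in both libraries, so no order of classes is read for them.

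Leaving out cardiac muscle, the class behind its selection, Chd7 was higher in KO in 8 of 9 classes, and 3 of the 9 intervals lay above 0. No share of all genes with as many classes or intervals above 0 is given here, so nothing is read from these counts. Cardiac muscle is given as a description and had 171 CPM in WT (151 to 192, 275 UMIs) and 257 in KO (228 to 288, 287 UMIs), for a ratio of 0.59 (0.35 to 0.83). In the undivided cardiac class with 3 or more markers, as the plan had it, the levels were 203 and 265 CPM and the ratio 0.39 (0.26 to 0.51). The cells with 3 to 6 cardiac markers, left out of the class, had a ratio of 0.28 (0.14 to 0.43). Somites had 235 and 306 CPM with a ratio of 0.38 (0.02 to 0.74), the neural tube 244 and 304 CPM and 0.32 (0.05 to 0.59), and endothelial cells 197 and 237 CPM and 0.27 (0.02 to 0.52). The last 3 intervals lay above 0, those of erythroid cells, migrating neural crest, floor plate, neurons and pharyngeal and splanchnic mesoderm included 0 with ratios of 0.21 to 0.30, and the dorsal neural tube had −0.18 (−0.75 to 0.39). Migrating neural crest had 274 CPM in WT and 317 in KO with a ratio of 0.21 (−0.09 to 0.50). With classes drawn after thinning to 1000 UMIs per cell, that ratio was 0.68 (−0.12 to 1.47) on 30 and 28 UMIs. The intervals of somites (0.71, −0.17 to 1.57), the neural tube (0.49, −0.13 to 1.12) and endothelial cells (0.36, −0.16 to 0.88) then included 0. Pharyngeal and splanchnic mesoderm had 1.00 (0.10 to 1.93) after thinning and neurons −0.11 (−1.01 to 0.77). With the cardiac list counted from 7 markers on, endothelial cells had 0.23 (−0.02 to 0.48) and the mesoderm 0.31 (0.03 to 0.59). In cells of 1000 to 3000 UMIs, somites had 0.26 (−0.17 to 0.68) and endothelial cells 0.16 (−0.16 to 0.48), and without candidate doublets endothelial cells had 0.20 (−0.09 to 0.48). With at least 4 markers the neural tube had 0.23 (−0.19 to 0.65) and somites 0.50 (−0.05 to 1.04). Over the 7 alternatives, 1 to 4 of the 9 intervals lay above 0.

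In cardiac muscle, 16.3% of 2788 genes with at least 200 UMIs there were at least 1.2-fold higher in KO and 19.8% lower, and of the 4 members tested only Chd7, selected on this ratio, was past the fold, from which nothing is read. In the neural tube, 16.1% of 1808 genes were higher and 13.4% lower, Chd7 being the 1 member of 4 past the fold. In endothelial cells, 16.1% of 2582 genes were higher and 14.5% lower, and of the 4 members tested Chd4 and Chd7 were past the fold in the higher direction. The neural tube and endothelial ratios of Chd7 were reached by 11.9% and 15.7% of the genes, respectively. No member was past the fold in the lower direction in the 3 classes.

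Chd4 was higher in KO in 9 of 10 classes as well, and in 6 of 10 when classes were drawn after thinning. The dorsal neural tube had 406 CPM in WT (73 UMIs) and 605 in KO (121 UMIs), for a ratio of 0.57 (0.14 to 1.01), which after thinning was −0.49, with 18 and 7 UMIs. Over the 7 alternatives this ratio ran from −0.49 to 0.63. With at least 2 markers the class had 148 Chd4 UMIs in 168 WT cells and 168 in 154 KO cells. Neurons had 451 and 635 CPM with a ratio of 0.49 (0.11 to 0.88), and endothelial cells 335 and 422 CPM and 0.33 (0.14 to 0.52). Cardiac muscle and the neural tube, with 0.22 each, also had intervals above 0. Erythroid cells had 239 and 238 CPM with a ratio of −0.01 (−0.33 to 0.31).

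Chd6, a broadly expressed relative of Chd7, was higher in KO in 8 of 10 classes, and in 4 of 10 when classes were drawn after thinning. The neural tube had 41.7 CPM in WT (35 UMIs) and 69.7 in KO (61 UMIs), for a ratio of 0.74 (0.12 to 1.39). Pharyngeal and splanchnic mesoderm had 58.7 and 92.4 CPM (46 and 57 UMIs) with a ratio of 0.65 (0.07 to 1.25). The dorsal neural tube had 5 UMIs in WT and 19 in KO, with a ratio of 1.77 (0.30 to 3.55). These counts are small: after thinning the neural tube ratio was 0.04, that of the mesoderm −0.09, and no UMI was left in the dorsal neural tube. Cardiac muscle and somites were at −0.17 and −0.04.

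Chd3 had the 1 interval below 0 among the 80 ratios of members within classes. It was found in neurons, with 159 CPM in WT and 83.5 in KO, for a ratio of −0.93 (−1.81 to −0.08) on 32 and 20 UMIs. The dorsal neural tube, the other class with a high WT level, had 17 and 8 UMIs with a ratio of −1.24 (−2.66 to 0.05). Chd3 was above 0 in 7 classes, but in 3 when classes were drawn after thinning. Over the 80 ratios, 53 were above 0 and 27 below, and 12 intervals lay above 0. These 12 belonged to Chd4 with 5, Chd7 with 4, the selecting one included, and Chd6 with 3. With classes drawn after thinning, 39 ratios were above 0, 38 below and 3 without a value. Under the other alternatives 50 to 55 were above 0. No share of all genes with ratios or intervals above 0 within classes is given here. Nothing particular to the family is therefore read from these counts, nor from the numbers of classes given for single members.

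Chd8 was split between classes, with 5 ratios above 0 and 5 below, and no interval of the 10 lay off 0. Migrating neural crest had 182 CPM in WT and 147 in KO, for a ratio of −0.30 (−0.71 to 0.10), and erythroid cells had 114 and 149 CPM and 0.39 (−0.04 to 0.81). Cells with 3 to 6 cardiac markers had 151 and 128 CPM with a ratio of −0.24 (−0.43 to −0.05). Chd1 was above 0 in 7 classes and Chd2 and Chd9 in 4 each, all with intervals that included 0. For Chd1 the number was 3 to 4 under 4 of the alternatives, so no direction is read.

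**Figure D4:**
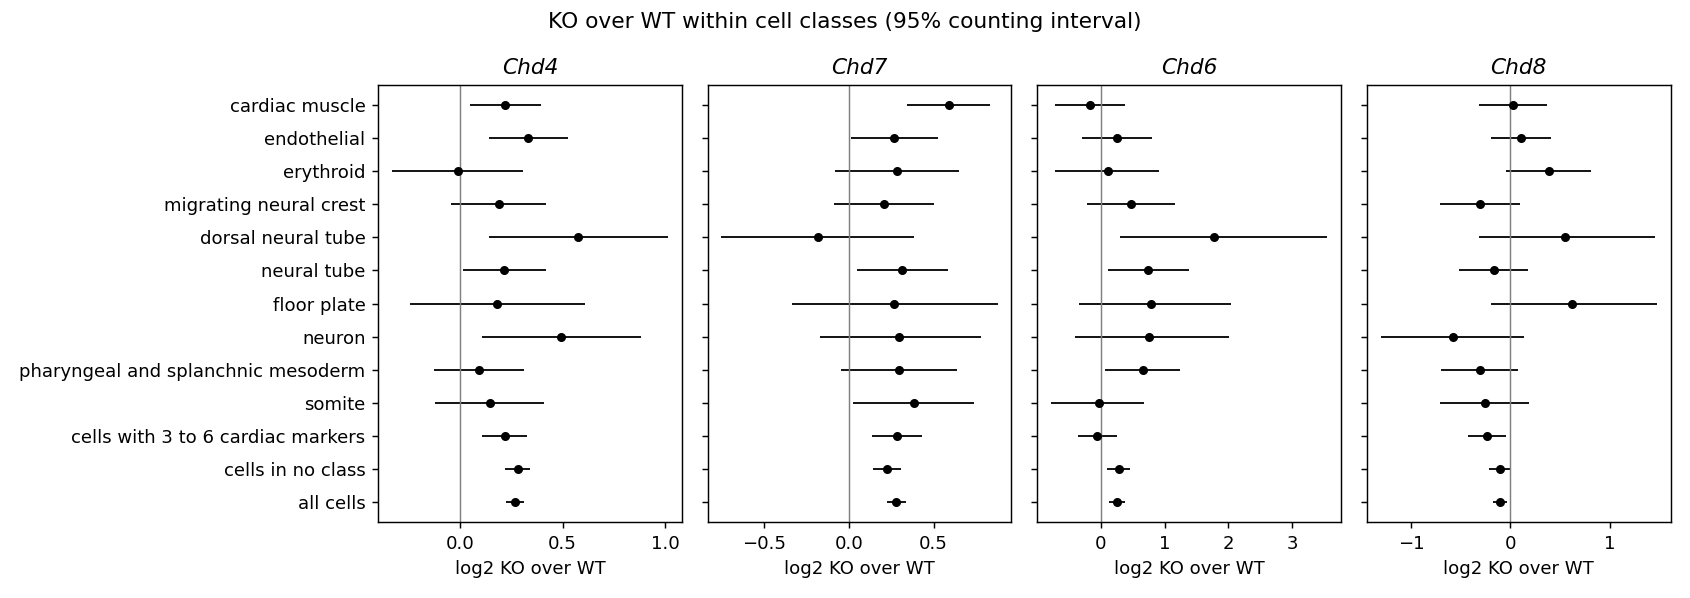
Log2 ratio of KO over WT with exact conditional intervals of 95% for Chd4, Chd7, Chd6 and Chd8 in the 10 classes, in cells with 3 to 6 cardiac markers, in cells of no class and over all cells. Horizontal axes differ between panels. Chd7, selected on cardiac muscle, and Chd4 lie above 0 in 9 of 10 classes each, Chd6 in 8 and Chd8 in 5. After thinning, Chd7 was above 0 in 8, Chd4 in 6, Chd6 in 4 and Chd8 in 3.

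Partners of the members were read from gene lists, whose counts stand against 6.46% of all genes past the fold in the higher direction and 15.9% in the lower. Of the 12 partners of Chd3 and Chd4 in NuRD, 0 were at least 1.2-fold higher in KO and 2 lower, with a median ratio of −0.07. The histone chaperone Rbbp4 was highest with 0.21 (0.17 to 0.26, with 377 CPM in WT and 437 in KO), and Mta3, a subunit that scaffolds the deacetylases, lowest with −0.40 (−0.61 to −0.19, with 22.6 and 17.1 CPM). The list summed to 2611 CPM in WT and 2594 in KO. Nothing particular to the partners is read from these counts. Of 16 genes linked to Chd7 in neural crest and otic cells, 0 were higher past the fold and 2 lower, with a median of −0.05. Tbx1, a regulator of the pharyngeal arches, was highest with 0.15 (−0.02 to 0.31), and Fgf8, a signal of the arches, lowest with −0.60 on 145 and 87 UMIs. Of 12 genes linked to Chd8, 1 was higher and 0 lower, with a median of 0.08. The insulator protein gene Ctcf had 0.28 (0.23 to 0.34) and Trp53, which encodes p53, −0.10 (−0.17 to −0.04).

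Other remodelers did not share 1 direction. ISWI genes, whose motors space nucleosomes, had 4 of 11 past the fold in the higher direction and 0 in the lower, with a median of 0.10. They ran from Pole3 at 0.37 (0.28 to 0.46) to Baz2a at −0.11 (−0.23 to 0.01). SWI/SNF genes had 1 higher and 1 lower of 24 and a median of −0.09, from Brd9 at 0.30 (0.17 to 0.42) to Smarcd3, the Baf60c subunit of heart and muscle, at −0.37 (−0.52 to −0.22). INO80 and SRCAP/p400 genes had 1 and 1 of 17 and a median of −0.02, with Actr6 at 0.58 (0.42 to 0.73) and Vps72 at −0.41 (−0.49 to −0.32). Other Snf2 ATPases had 3 higher and 0 lower of 14 and a median of 0.01, from Hells, which acts in DNA methylation, at 0.34 (0.28 to 0.41) to Btaf1 at −0.09 (−0.24 to 0.06). Histone modifiers of syndromes with neural crest defects had 3 higher and 0 lower of 16 and a median of 0.06, from Setd5 at 0.34 (0.26 to 0.41) to Ehmt1 at −0.16 (−0.23 to −0.09). The median of the Chd members was 0.20, above those of these lists, but by summed level the order differed, with 0.18 for the Chd family, 0.23 for ISWI genes and 0.21 for other Snf2 ATPases. The members were chosen with earlier results known, so these are descriptions.

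Lists that track quality, cell cycle or free RNA were read in the same way. Of 11 replication histone genes tested, 6 were higher past the fold and 1 lower, with a median of 0.37. Hist1h1b had 37.0 CPM in WT and 130.3 in KO, and Hist1h3d a ratio of −0.64. Of 8 nuclear-retained RNAs, 1 was higher, Gm42418, and 2 lower, with Mirg lowest at −0.29 and a median of 0.06. Of 8 immediate early and heat shock genes, 0 were higher and 2 lower, from Dnajb1 at 0.14 to Hspb1 at −0.39, with a median of −0.21. Of 7 globins, 0 were higher and 6 lower, from Hbb-bs at −0.01 to Hba-x at −1.16. In cardiac muscle, the class on which Chd7 was selected, the histone sum was 187 and 354 CPM, the globin sum 3792 and 1565, and the median depth 2358 and 3093.5 UMIs in WT and KO. Their part in the Chd7 ratio was not tested.

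Likeness to each member was measured over the 10 classes of both libraries, as Pearson's r of log2(CPM + 10) over 20 points, among 6019 genes with at least 500 UMIs in each library. The points share libraries and differ in depth, so the values are descriptions. Chd7 was most like Greb1l (r = 0.84), Strbp (0.83), Trove2 (0.82) and Dlg3 (0.82). Chd4 was most like Gnaq (0.95), Rere (0.92) and the SWI/SNF subunit Smarce1 (0.91), and Chd3 most like Trappc4 (0.84), the axon guidance receptor Robo2 (0.81) and Fam53c (0.81). For Chd1 they were Hnrnpa0 (0.87) and Pop4 (0.85), for Chd8 Dpp3 (0.79), Pop4 (0.76) and Zfp280d (0.76), and for Chd6 Amer1 (0.83), Dhx36 (0.82) and Hnrnpm (0.82). For the sparse Chd2 they were Nsun4 (0.80), Sec31a (0.79) and Rbm18 (0.77), and for Chd9 Tinf2 (0.86), Bahcc1 (0.83) and Spred2 (0.82). Among the members themselves Chd4 was closest to Chd6 (0.71) and Chd7 (0.70). Of these 26 genes, 3 were also among the most like in the 10 WT classes alone, so most of these names depend on the points used.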

How the data were processed

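Single-cell 3′ libraries of WT and KO embryos were analysed, 1 per genotype. Per the methods and the processing notes of the submitters, reads were aligned and UMIs counted with Cell Ranger 1.3.1 (the notes name mm10, whereas the methods name a human genome with the reporter). Mitochondrial and ribosomal UMIs and outlying cells were removed by the authors. The deposited values are scores: each count was divided by the cell total, multiplied by 1641 and square-root transformed by the authors. Whether counting used strand is not given in the sources used here. Antisense transcripts overlap Chd2 (2 WT and 1 KO UMIs) and Chd8 (24 and 12).

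UMIs were recovered by squaring each value and dividing by the smallest nonzero square of the cell; 100% came out whole within 0.01. The unit planned was counts, and the values were scores; no count model was run. Levels are CPM with exact Poisson intervals, shares carry exact Clopper-Pearson intervals, and ratios carry exact conditional intervals, all of 95% (scipy 1.17.1, numpy 2.4.6, pandas 2.3.3, Python 3.11.15); the interval script was checked on simulated data. Cells were classed with 167 of 172 markers that were in the table. The cardiac class was divided at 7 markers after the data were seen. Per the methods, the authors excluded doublets with DoubletFinder and a limit on high count depth. No doublet caller was run on the deposited cells; cells with markers of 2 or more distant classes were left out in an alternative. Thinning used 1 random draw. Genes named are the 8 members, the 3 genes most like each (5 for Chd7, and 2 of all these genes are not reported here), and the highest and lowest gene of each list with at least 200 UMIs; genes named as class leaders were chosen after their values were seen. The members and lists were chosen with earlier results of these data known. GENCODE vM21 held 17917 of the gene symbols. There is no map from cells to embryos.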

Additional observations from a re-analysis of the deposited data

How the results depend on the processing

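No paired analysis was possible because each genotype had 1 library, and leaving out a replicate was likewise not possible. Each all-cell ratio kept its direction under the 12 alternatives. Values left the counting interval in 4 cases: with TMM scaling, the trimmed mean of log ratios, Chd4 was 0.33 and Chd7 0.34, and with a median of ratios they were 0.33 and 0.35, since these scalings raise all genes by 0.06 and 0.07. The ranges were 0.23 to 0.33 for Chd4, 0.25 to 0.35 for Chd7, 0.15 to 0.34 for Chd6, 0.23 to 0.36 for Chd2 and −0.17 to −0.04 for Chd8. Members past the fold in the higher direction numbered 5 at 1.1-fold and 0 at 1.5-fold. At 1.2-fold they were 3 in the main result, 4 with either scaling, and 2 with thinned cells, with cells of 1000 to 3000 UMIs, without erythroid cells, without cells of at least 3 cardiac markers, with the WT class make-up, and with globins, histones and Gm42418 out of the totals. At 1.2-fold the share of all genes in the higher direction was 6.46% in the main result and 6.73% without cells of at least 3 cardiac markers. For the other settings, 1.1-fold and 1.5-fold included, no such share is given here, so nothing is read from those member counts. With no minimum beyond 1 UMI the share of all genes past 1.2-fold was 14.8% higher and 26.3% lower. Of 10 classes, Chd1 was above 0 in 4 with at least 2 markers, 4 with at least 4, 4 without candidate doublets and 3 in cells of 1000 to 3000 UMIs, and Chd2 in 7 when the cardiac list was counted from 7 markers on; the cause was not tested. With classes drawn after thinning, Chd3 was above 0 in 3, Chd4 in 6, Chd6 in 4 and Chd8 in 3, Chd7 in migrating neural crest was 0.68, Chd4 in the dorsal neural tube was −0.49 and Chd6 in pharyngeal and splanchnic mesoderm −0.090. Chd6 could not be given there in the dorsal neural tube, with 0 UMIs in both. Over these alternatives Chd7 was above 0 in 8 to 10 classes and its cardiac muscle ratio ran from 0.39 to 0.86, the lowest with 1 cardiac class from 3 markers on and the highest in cells of 1000 to 3000 UMIs. The cardiac class was planned undivided, from 3 markers on, and its split at 7 markers, the depth window within classes, the cardiac list from 7 markers on, totals without globins, histones and Gm42418, and leaving out cardiac cells were chosen after seeing the data. With WT classes alone, 3 of the 26 pairs of a member and a most like gene were shared. Counts under about 30 UMIs limit Chd2, Chd3, Chd6 and Chd9 in the smaller classes.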

Other observations

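Many cells had UMIs of more than 1 member. At least 1 member had a UMI in 78.3% of the cells in WT and 83.9% in KO. At least 2 members did in 43.5% and 53.6%, and at least 3 in 16.9% and 23.9%. After thinning to 1000 UMIs, at least 1 member was seen in 63.5% and 68.2%, at least 2 in 23.2% and 26.5%, and at least 3 in 4.78% and 5.78%. The largest number of UMIs of a member in a single cell was 8 in WT and 7 in KO, both for Chd4, and for Chd7 it was 5 and 6. At this depth a cell without a UMI cannot be read as one without the transcript.

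The family sum also differed between classes. It was lowest in erythroid cells, with 732 CPM in WT and 784 in KO, and highest in neurons, with 1394 and 1520. In cardiac muscle it was 919 and 1073, a ratio of 0.22 (0.11 to 0.34) that includes the Chd7 value used for selection, and without Chd7 748 and 816 CPM and 0.13 (0.00 to 0.25). In migrating neural crest the family sum was 1180.4 and 1309, a ratio of 0.15 (0.01 to 0.29). Without Chd7 it was 906 and 993 CPM there, with a ratio of 0.13 (−0.03 to 0.29), an interval that included 0.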
